A study of Mus musculus with 36 samples.

Results

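The comparison set 5 heterozygote against 5 wild-type whole brains of male C57BL/6J mice at postnatal day 56 (P56), the young adult. These 10 libraries were chosen by the age and genotype labels and are 10 of the 36 libraries of the series, which also holds 10 brains at P21 and 16 at P3. The heterozygote group is labelled Myt1l heterozygote, the other group wild-type, and no mouse was treated. The labels name neither the allele nor how it was made, and they give no litter, dissection day or run. Wild-type and mutant pups shared a cage with a mother until weaning, and each P56 library is labelled as its own replicate, so the p-values measure the spread between these 10 libraries. RNA was measured by RNA-seq from a kit that does not mark strand, so overlapping genes on opposite strands cannot be told apart.

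MYT1L is a zinc-finger DNA-binding protein of neurons. It recruits histone deacetylase complexes, and in cell reprogramming it is known for holding down programs of other cell types and Notch signalling. Loss of 1 copy in people is a known cause of intellectual disability and autism with obesity, which is why the adult heterozygote brain is of interest. Its relatives are MYT1, found in neural and oligodendrocyte precursors, and ST18.

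The deposited values are normalized counts, that is, estimated read counts divided by a factor for each library. Their totals ran from 34475862 to 38202024 in the P56 libraries, and no library lay more than 2 SD from the centre on the first 2 principal components. Wild-type replicate 3 was nonetheless at the edge on both (-1.65 and -1.63 SD), and results that rest on it, or on heterozygote replicate 5, are given with and without it. The value also drifted with the length of the gene's exons in a way that differed between libraries. The slope of a library's log2 deviation on log2 length was 0.032, 0.032, 0.055, 0.028 and -0.040 in heterozygote replicates 1 to 5. It was 0.0064, -0.084, 0.068, -0.076 and -0.021 in wild-type replicates 1 to 5.

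Myt1l itself was at 5592, 5181, 8115, 5392 and 5983 normalized counts in wild-type replicates 1 to 5. In heterozygote replicates 1 to 5 it was at 6393, 6410, 7465, 6495 and 5918. The heterozygote values lay inside the wild-type range. Wild-type replicate 3 was the highest of all 10, and 4 of the 5 heterozygote values were above the other 4 wild-type values. The log2 difference, heterozygote minus wild-type, was 0.13 with a standard error (SE) of 0.113 (exact two-sided permutation p = 0.373, where the smallest this design allows is 0.00794). The gene lies at chr12:29528384-29923213 in GRCm38. Since the labels do not say what the allele removes, a sum over the whole gene is no check of the genotype, and the groups are named here as labelled.

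No single gene passed the test at P56. Of 17310 genes with at least 10 normalized counts in at least 5 of the 10 libraries, 0% (0 genes) reached an adjusted p under 0.05 in limma, a linear model fitted to log2(value + 1), with Benjamini-Hochberg adjustment over all of them. The smallest adjusted p was 0.178. At an unadjusted p under 0.05 there were 646 genes higher in heterozygotes (3.73% of those tested) and 667 lower (3.85%). Leaving out the intensity trend in limma's variance called 1 gene, Mlxipl, with an adjusted p of 0.0283. Heterozygote values lay wholly above the wild-type values for 105 genes (0.607%) and wholly below for 140 (0.809%). The mean was higher in heterozygotes for 48.2% of the genes, and the median difference was -0.0072 on the log2 scale. In bulk tissue, fewer cells of a type and less RNA per cell cannot be told apart, for any gene described here.

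The 12 named genes on the higher side, those of smallest p, did not overlap between the groups in 11 cases (0.607% of all genes lay wholly higher). Ranking by p in these same brains favours separate groups, so the separation is no further support. Those given here had log2 differences between 0.32 and 0.95. Mlxipl, which encodes the glucose-responsive transcription factor ChREBP, stood at 50.3, 51.5, 39.8, 45.4 and 40.6 normalized counts in wild-type replicates 1 to 5. In heterozygote replicates 1 to 5 it stood at 80.9, 82.9, 91.1, 101 and 87.1, so that the lowest heterozygote brain was well above the highest wild-type brain. The means were 88.6 ± 7.90 (SD, n = 5) and 45.5 ± 5.40 (SD, n = 5), a 1.93-fold difference on the log2(value + 1) scale with a 95% interval of 1.57 to 2.38. Its log2 difference of 0.95 (SE 0.139) had an adjusted p of 0.178 by limma. The gene is at chr5:135089890-135138382 in GRCm38.

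Dock10, an exchange factor that activates small GTPases, was at 1516, 1612, 1589, 1598 and 1732 in the wild-type brains. It was at 2025, 2133, 2309, 2073 and 2015 in the heterozygote brains, with no overlap and a log2 difference of 0.39 (SE 0.0607, adjusted p = 0.178 by limma). Abca9, a transporter of the ABC family, was at 337, 331, 304, 343 and 291 in wild-type and at 456, 451, 468, 442 and 435 in heterozygote brains. The heterozygote brains were close together for this gene (450 ± 12.5, SD, n = 5, against 321 ± 22.8, SD, n = 5). Its log2 difference was 0.49 (SE 0.0763, adjusted p = 0.178 by limma).

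**Figure D1:**
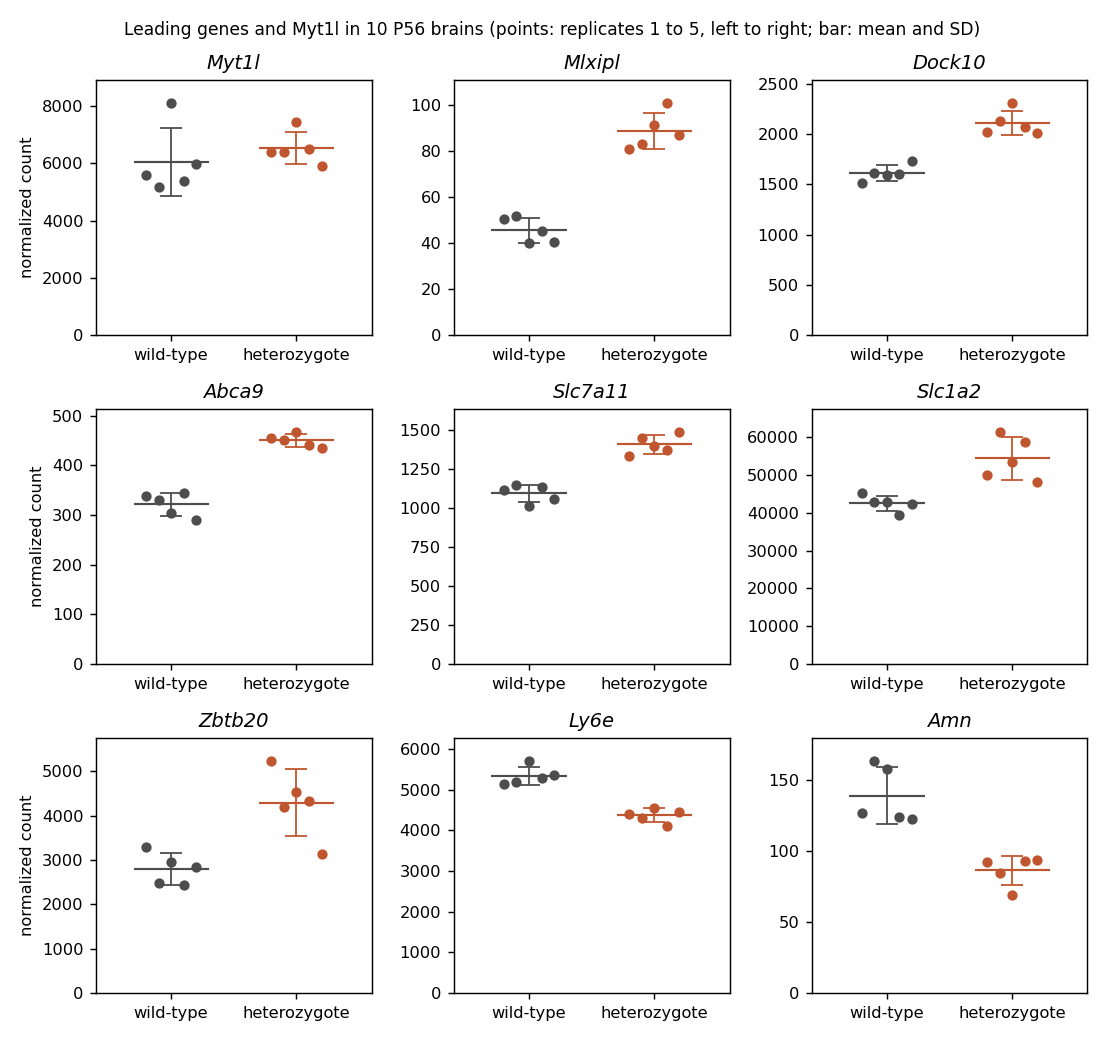
Normalized counts of Myt1l and 8 of the genes ranked first, in each of the 5 wild-type and 5 heterozygote P56 brains. Points are replicates 1 to 5 from left to right and bars are the mean with the SD; Mlxipl, Dock10, Abca9, Slc7a11, Slc1a2, Ly6e and Amn show no overlap between the groups, while Myt1l and Zbtb20 do overlap.

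Also among the 12 higher genes were 3 carriers of amino acids. Slc7a11, the cystine-glutamate exchanger, was at 1114, 1150, 1014, 1137 and 1060 in wild-type brains and at 1336, 1451, 1401, 1374 and 1491 in heterozygote brains. The groups did not overlap, and the log2 difference was 0.37 (SE 0.0608, adjusted p = 0.241 by limma). Slc1a2, which encodes the main astrocytic glutamate transporter, was at 45132, 42898, 42837, 39443 and 42317 in wild-type brains. Its heterozygote values were 50102, 61393, 53382, 58787 and 48201, again all higher, and the log2 difference was 0.35 (SE 0.0758, adjusted p = 0.595 by limma). Slc7a2, a carrier of cationic amino acids, was at 1212 ± 115 (SD, n = 5) against 908 ± 87.8 (SD, n = 5) without overlap.

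Zbtb20, a zinc-finger repressor of hippocampal neurons and astrocytes, had the second largest difference among the 12 higher genes (log2 difference 0.60, SE 0.126, adjusted p = 0.595 by limma), but its groups overlapped. Wild-type brains were at 3290, 2472, 2956, 2438 and 2842 and heterozygote brains at 5235, 4197, 4535, 4326 and 3143. Only heterozygote replicate 5 fell within the wild-type range. A further 4 genes on this side showed separate groups. They were Tead1 (DNA-binding partner of the Hippo pathway, log2 difference 0.40), Sec14l5 (a SEC14-like lipid-binding protein, 0.42), Itpr2 (the inositol trisphosphate receptor of astrocytes, 0.45) and Hmbox1 (a homeobox protein that binds telomeres, 0.32). Itpr2 was higher in heterozygote replicate 5 (1011) than in the other heterozygote brains (701 to 776).

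The 12 named genes on the lower side had log2 differences between -0.68 and -0.20. The groups were separate in 11 (0.809% of all genes lay wholly lower), which the ranking by p in these same brains again favours. Ly6e, a lipid-anchored surface protein of the LY6 family, was at 5148, 5182, 5713, 5298 and 5375 in wild-type brains and at 4413, 4312, 4556, 4108 and 4464 in heterozygote brains. The groups were separate, and the log2 difference was -0.29 (SE 0.0551, adjusted p = 0.537 by limma). Amn, which encodes the cubilin partner amnionless, was at 126, 163, 158, 124 and 122 against 92.0, 84.6, 69.2, 92.7 and 93.4, a log2 difference of -0.68 (SE 0.138, adjusted p = 0.595 by limma). This was the largest difference among the 12 lower genes.

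Rwdd2a, a gene of little known function, was at 690 ± 14.2 (SD, n = 5) in wild-type and 548 ± 38.4 (SD, n = 5) in heterozygote brains, with a log2 difference of -0.33. Cited4, a coactivator that binds CBP and p300, was at 284, 242, 312, 278 and 346 against 204, 208, 225, 217 and 215, with separate groups and a log2 difference of -0.44. Rac3, a small GTPase of neurons, had a log2 difference of -0.44, but heterozygote replicate 5 at 568 reached into the wild-type range, whose lowest value was 567. The other 7 genes had separate groups and log2 differences between -0.41 and -0.20. They were Tsen54 (a subunit of the tRNA splicing endonuclease, -0.41), Igfbp6 (an insulin-like growth factor binding protein, -0.37), Mlip (a lamin-interacting protein, -0.32), Nudt16 (a Nudix hydrolase, -0.30), Vps37d (an ESCRT-I subunit, -0.29), Tor2a (a torsin ATPase, -0.29) and Tmem59l (a neuronal membrane protein, -0.20).

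Exon length differed between the sides, with overlap. Of the 12 higher genes 10 were in the longest of 5 equal classes of all genes by summed exon length and 0 in the shortest. Of the 12 lower genes 1 was in the longest class and 7 in the shortest. When a trend on exon length was removed from each library, all 24 kept their direction, and Tmem59l was the one gene whose log2 difference changed by more than 1.5 times (to -0.12). How far the length drift accounts for the order of these genes was not tested.

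MYT-family zinc fingers are known to bind DNA around the core AAGTT, so windows from 250 bases before to 50 bases after the transcript starts listed by RefSeq (GRCm38.p6) were searched for it. Capitals mark AAGTT or its reverse complement AACTT, the 2 spellings searched. The windows of the 4 genes of smallest p on the higher side are shown, in that order (a choice made after the matches were counted), and where RefSeq lists several for a gene the first was taken.
Mlxipl window, chr5:135106641-135106940, plus strand: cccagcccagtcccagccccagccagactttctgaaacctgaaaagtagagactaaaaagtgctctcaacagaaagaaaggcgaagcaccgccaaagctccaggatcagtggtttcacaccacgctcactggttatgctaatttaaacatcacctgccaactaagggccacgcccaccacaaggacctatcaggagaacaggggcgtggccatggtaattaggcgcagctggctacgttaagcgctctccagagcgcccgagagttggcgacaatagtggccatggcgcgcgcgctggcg
Dock10 window, chr1:80758504-80758803, minus strand: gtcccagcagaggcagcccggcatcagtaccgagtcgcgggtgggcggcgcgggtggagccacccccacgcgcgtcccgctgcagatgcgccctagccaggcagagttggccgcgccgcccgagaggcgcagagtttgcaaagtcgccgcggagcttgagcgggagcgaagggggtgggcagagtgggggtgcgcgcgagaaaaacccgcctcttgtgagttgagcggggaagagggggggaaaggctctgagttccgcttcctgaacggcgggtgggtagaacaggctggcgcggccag
Abca9 window, chr11:110168104-110168403, minus strand: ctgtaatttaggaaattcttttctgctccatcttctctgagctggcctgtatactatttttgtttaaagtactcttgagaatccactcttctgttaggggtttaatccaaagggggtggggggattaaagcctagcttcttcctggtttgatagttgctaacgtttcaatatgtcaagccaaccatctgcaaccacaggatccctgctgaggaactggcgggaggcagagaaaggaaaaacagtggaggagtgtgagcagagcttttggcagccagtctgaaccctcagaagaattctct
Slc7a11 window, chr3:50443564-50443863, minus strand: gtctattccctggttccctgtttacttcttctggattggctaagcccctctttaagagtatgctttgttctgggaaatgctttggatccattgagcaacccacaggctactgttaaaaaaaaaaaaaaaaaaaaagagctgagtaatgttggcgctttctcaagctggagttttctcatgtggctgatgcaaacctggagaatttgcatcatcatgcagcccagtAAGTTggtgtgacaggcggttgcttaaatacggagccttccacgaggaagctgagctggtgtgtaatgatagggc
The Slc7a11 window holds 1 match and the other 3 windows 0. The Mlxipl window lies inside the gene as GENCODE draws it, downstream of its annotated start, and the windows of the other 3 genes cover that start. Among the 24 first-ranked genes 19 had a window and 5 of these (26.3%) held a match. Among all tested genes with a window, 4018 of 12515 (32.1%) did. A match of these letters is a description of the window only.

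The same genes were next read at the younger ages, whose libraries share no sample with P56. They were picked for their values at P56, so smaller differences at other ages can follow from that choice and are no contrast between ages. All 12 lower genes were also lower at P21, with a median log2 difference of -0.23, and 10 of them at P3, with a median of -0.081. Of the 12 higher genes, 11 were also higher at P21 and 8 at P3, with medians of 0.088 and 0.047. These counts have no background, either over all genes or over genes of like exon length. Of the 12 lower genes 7 were in the shortest length class, and of the 12 higher genes 10 were in the longest. Whether the counts go beyond what genes of such length show at P21 and P3 was not tested. Slc1a2 had a log2 difference of 0.35 at P56, -0.04 at P21 and -0.02 at P3. For Sec14l5 it was 0.42 at P56 and 0.43 at P21. Across 16296 genes tested at every age, Pearson's r between the P56 and P21 differences was 0.343, and between P56 and P3 0.182. Genes are not independent replicates, and part of such a correlation can come from what libraries share, such as the length drift.

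**Figure D2:**
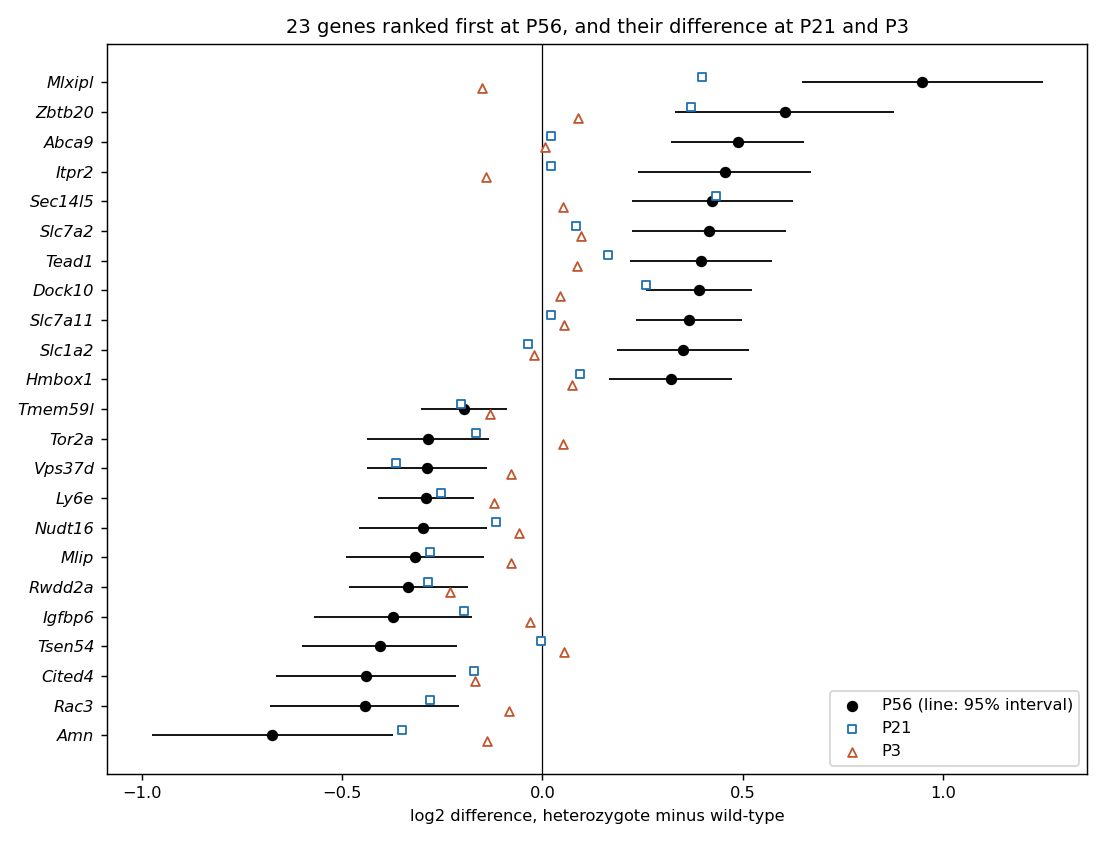
Log2 difference, heterozygote minus wild-type, of 23 first-ranked genes at P56 (black, with the 95% interval), P21 (blue squares) and P3 (orange triangles). The 12 lower genes are all below 0 at P21 as well, a count with no background over all genes. The genes were chosen for their P56 values, so the distance between the symbols is no contrast between ages.

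Whether a gene's genotype difference itself depended on age was tested in a fit of all 36 libraries (18840 genes). For P56 against P21, 1 gene (0.00531%) had an adjusted p under 0.05 by limma, and 798 had an unadjusted p under 0.05. It was Gm31513, a predicted gene outside the rule for named genes and singled out after its values were seen. At P56 it was at 15.9, 7.65, 11.5, 6.99 and 17.6 in wild-type and at 1.2, 2.09, 2.55, 0 and 2.28 in heterozygote brains. At P21 the heterozygote brains were mostly the higher, at 8.24 to 11.2 against 4.73 to 8.90. The difference of differences was -2.82 (SE 0.491, adjusted p = 0.0282 by limma), and all of its values are low. In a fit of the P56 and P21 libraries alone 0 genes were called, and the same was true without wild-type replicate 1, 3 or 5 or heterozygote replicate 1 or 4.

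Within the rule for named genes, the smallest p in the contrast with P21 was that of Dynlt1f, a dynein light chain gene. Its difference of differences was 0.65 (SE 0.148, adjusted p = 0.362 by limma). At P56 it was at 207 ± 26.6 (SD, n = 5) in heterozygote and 171 ± 26.7 (SD, n = 5) in wild-type brains, with overlap, and at P21 at 222 ± 42.5 and 283 ± 22.4. Cyp26b1, which degrades retinoic acid, was at 514 ± 68.0 (SD, n = 5) in heterozygote and 420 ± 77.8 (SD, n = 5) in wild-type brains at P56. At P21 it was at 583 ± 45.8 (SD, n = 5) and 733 ± 62.2 (SD, n = 5), so that the difference of differences was 0.63 (SE 0.158, adjusted p = 0.719 by limma). Tep1, a telomerase-associated protein, went the other way, from 314 ± 88.9 (SD, n = 5) in heterozygote against 175 ± 46.9 (SD, n = 5) in wild-type brains at P21 to 211 ± 35.8 and 240 ± 20.9 at P56. Tonsl, a DNA replication-repair factor, had the same pattern with a difference of differences of -1.01 (SE 0.259, adjusted p = 0.745 by limma).

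Against P3, 0% (0 genes) had an adjusted p under 0.05, 863 had an unadjusted p under 0.05, and the smallest adjusted p was 0.846 by limma. First by p within the rule for named genes was Ltv1, a factor of ribosome assembly. It was at 543, 537, 575, 603 and 521 in wild-type P56 brains and at 481, 483, 486, 461 and 484 in heterozygote brains, which were all lower. At P3 the heterozygote mean was the higher (567 ± 22.3 against 533 ± 25.6, SD, n = 8 each). Myt1l had a log2 difference of 0.48 at P3 and of 0.13 at P56, a difference of -0.35 (SE 0.103, adjusted p = 0.904 by limma).

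Glial gene lists stood on the higher side at P56. Of 30 myelin and oligodendrocyte genes, 30 were higher in heterozygotes, with a median log2 difference of 0.16, against 48.2% and -0.0072 over all genes. Of 16 genes of oligodendrocyte precursors 16 were higher (median 0.19), and of 24 astrocyte genes 23 (median 0.15). No member had an adjusted p under 0.05 by limma. At an unadjusted p under 0.05 there were 4 myelin, 5 precursor and 4 astrocyte genes, all higher, where 3.73% of all genes were. In the joint fit of 36 libraries 0 myelin genes were at that p. With libraries weighted by quality, 23 of 30 myelin genes (median 0.082) and 16 of 24 astrocyte genes (0.068) were higher. Much of this rested on 1 control brain: without wild-type replicate 3, 19 of 30 myelin genes were higher (median 0.038), 13 of 16 precursor genes (0.11) and 11 of 24 astrocyte genes (-0.014). Without heterozygote replicate 5 the counts were 22 (median 0.086), 13 (0.16) and 16 (0.083). Without wild-type replicate 2, in contrast, the myelin and astrocyte medians were 0.29 and 0.28. With the length trend removed the myelin, precursor and astrocyte medians were 0.19, 0.16 and 0.18.

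The oligodendrocyte genes show this library by library. Mag, an adhesion protein of the myelin sheath, was at 7633, 8657, 5458, 7756 and 6595 in wild-type brains and at 8058, 8514, 8487, 8472 and 9921 in heterozygote brains, with a log2 difference of 0.28 (SE 0.111). Myrf, the transcription factor that drives myelin genes, was at 2548, 2698, 1818, 2446 and 2128 against 2587, 2593, 3154, 3040 and 3371 (log2 difference 0.35, SE 0.113). In both, wild-type replicate 3 was the lowest of all and heterozygote replicate 5 the highest. Ugt8a, an enzyme of galactolipid synthesis, and Enpp6, a marker of newly forming oligodendrocytes, had log2 differences of 0.35 and 0.30. At P21 the median of the same 30 genes was -0.040 and at P3 -0.060.

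Precursor genes kept more of the difference when that control was left out. Ptprz1, a receptor phosphatase of precursors and astrocytes, was at 5870, 4782, 3940, 4583 and 4604 in wild-type brains and at 6122, 7239, 6136, 7013 and 5455 in heterozygote brains (log2 difference 0.43, SE 0.106, adjusted p = 0.622 by limma). Pdgfra, the growth factor receptor that defines the precursors, was at 1410, 1307, 1066, 1213 and 1404 against 1461, 1831, 1538, 1647 and 1410. In each gene the one wild-type value that reached the heterozygote range was that of replicate 1, which in Pdgfra was level with heterozygote replicate 5. Gpr17, a receptor of differentiating precursors, and Vcan, a matrix proteoglycan, had log2 differences of 0.32 and 0.54.

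Among astrocyte genes Slc1a2, given above, had separate groups, and the others overlapped. Aqp4, the water channel of astrocyte end-feet, was at 6974, 7389, 4019, 6925 and 4309 against 7080, 8513, 6628, 7633 and 7931 (log2 difference 0.39, SE 0.168). Wild-type replicates 3 and 5 were the 2 low values. Slc4a4, a bicarbonate transporter, had a log2 difference of 0.34. Microglial genes were 18 of 25 higher with a median of 0.053, which was -0.059 without wild-type replicate 3 and 0.17 without wild-type replicate 2. The integrin Itgam was the microglial gene with separate groups, at 391, 470, 329, 391 and 414 against 531, 526, 479, 487 and 497.

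**Figure D3:**
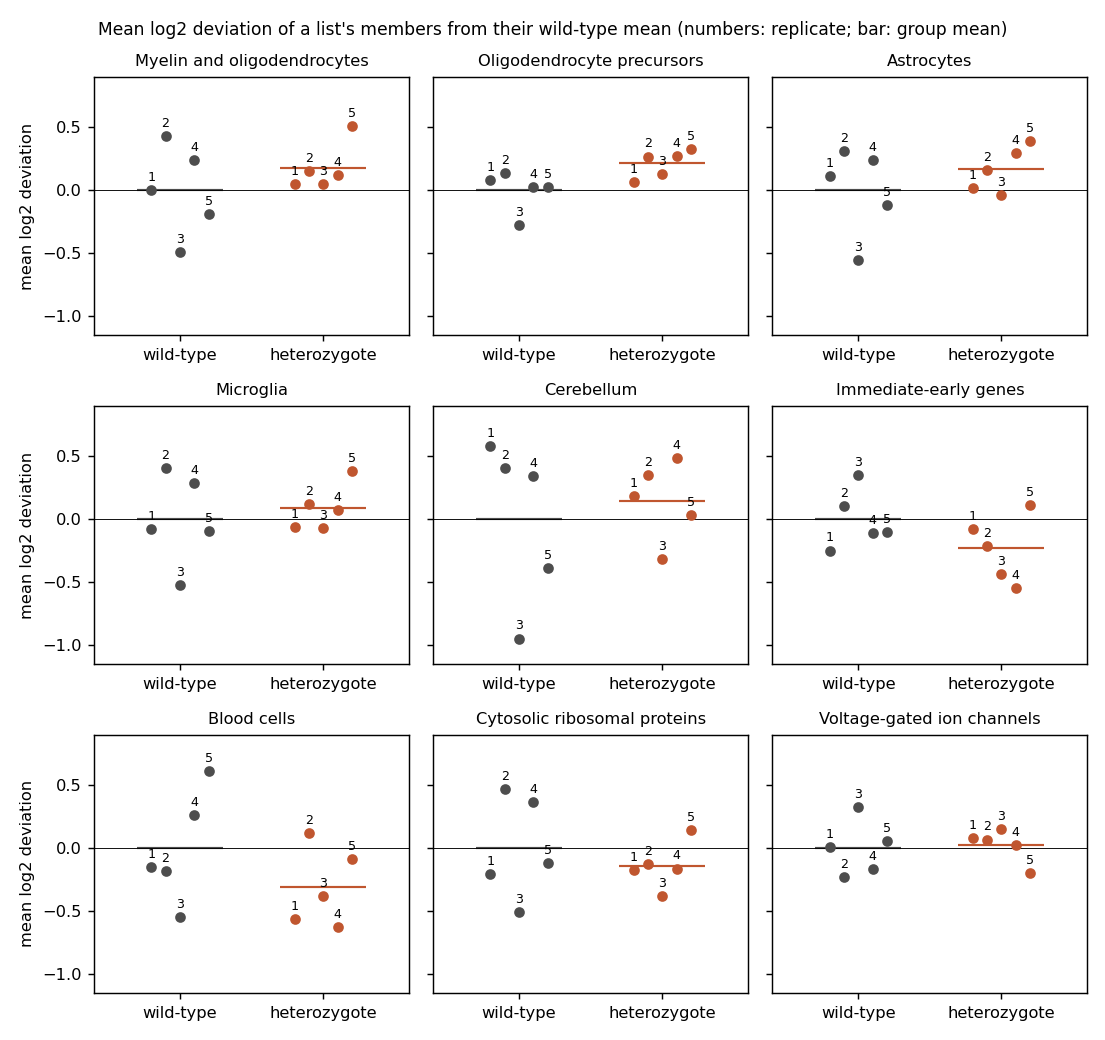
Mean over each list's members of log2(value + 1), as the deviation from the wild-type mean, in each P56 brain; numbers are the replicates and bars the group means. Wild-type replicate 3 is lowest for the myelin, precursor, astrocyte, microglia and cerebellum lists (-0.49, -0.28, -0.55, -0.52 and -0.95) and highest for immediate-early genes and voltage-gated ion channels, and the genotypes overlap in all 9 panels.

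Neuronal lists pointed in different directions. Immediate-early genes, which neurons transcribe soon after activity, were lower in heterozygotes for 21 of 26 members, with a median log2 difference of -0.22 (-0.12 without wild-type replicate 3). At an unadjusted p under 0.05, 5 were lower (3.85% of all genes were) and 0 higher. Junb was at 1427, 1831, 2145, 1394 and 1832 in wild-type brains and at 1443, 1171, 1016, 856 and 1750 in heterozygote brains (log2 difference -0.50, SE 0.182, adjusted p = 0.645 by limma). Npas4, the activity-dependent factor of neurons, was at 645, 505, 985, 608 and 1004 against 641, 447, 507, 395 and 605 (-0.50, SE 0.20). Ier2 and Egr4 had log2 differences of -0.48 and -0.43. The count of lower members at an unadjusted p under 0.05 was 0 without heterozygote replicate 4, the lowest brain of the list. Without heterozygote replicates 2 and 3 it was 1 and 2. It was 3 without wild-type replicate 3 or 5, with the length trend removed or without limma's intensity trend. Without heterozygote replicate 5 it was 10, and in the joint fit of 36 libraries 9. Over all genes the lower count was 414 and 923 without heterozygote replicates 4 and 5. In the joint fit it was 1035, beside 667 with all 10 brains in the main fit.

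Neuropeptide and hypothalamic genes were lower for 21 of 25 members (median -0.17, and -0.10 without wild-type replicate 5). The list's median exon length was 1384 bases, within the shortest length class, and with the length trend removed its median was -0.13. At an unadjusted p under 0.05, 4 members were lower, and 1 with that trend removed. Groups were separate for 3 of the 25, Npy, Tac2 and Vip, where 0.809% of all genes were lower without overlap. Npy, which encodes neuropeptide Y, was at 1603, 1798, 1740, 2154 and 1697 in wild-type brains and at 1487, 1539, 1458, 1491 and 1574 in heterozygote brains (log2 difference -0.25, SE 0.0769, adjusted p = 0.645 by limma). Vip, a peptide of cortical interneurons and the suprachiasmatic nucleus, was at 593, 608, 593, 739 and 724 against 564, 553, 442, 588 and 579. Penk, which encodes the enkephalins of striatal neurons, was at 6979 ± 1171 (SD, n = 5) in wild-type and 5610 ± 379 (SD, n = 5) in heterozygote brains. At P21 the log2 differences of Npy, Penk and Vip were -0.31, -0.30 and -0.29, and the list's median was -0.062.

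Genes of inhibitory synapses and interneurons were higher for 11 of 30 members (median -0.053). Beside Npy and Vip, this list's first genes were the interneuron peptides Sst (log2 difference -0.22) and Cck (-0.22), and without heterozygote replicate 5 the list's median was -3.03e-05. Genes of monoamine and acetylcholine neurons were higher for 17 of 19 members, with a median of 0.21 that was 0.047 without wild-type replicate 3 and 0.098 without heterozygote replicate 5. Slc18a2, the vesicular monoamine transporter, was at 379, 530, 352, 417 and 490 in wild-type brains and at 436, 573, 482, 607 and 694 in heterozygote brains. The groups overlapped for Slc18a2, with a log2 difference of 0.36, as they did for the noradrenaline transporter Slc6a2 (0.41). Chat, which makes acetylcholine, had a log2 difference of 0.32.

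Synaptic lists had medians near that of all genes and below that of the longest class of genes (0.065), with a few members lower in heterozygotes. Of 40 presynaptic release genes 19 were higher (median -0.036) and of 36 postsynaptic density genes 14 (median -0.052). The lists' median exon lengths, 7424.5 and 7958 bases, fall in that longest class. Both list medians turned slightly positive without wild-type replicate 3 (0.011 and 0.015). With the length trend removed they were -0.036 and -0.071, and 14 of 40 and 7 of 36 members were higher. Synaptophysin, Syp, was at 40633, 41085, 46865, 42292 and 46589 in wild-type brains and at 39660, 37966, 39213, 36643 and 36877 in heterozygote brains (log2 difference -0.19, SE 0.0620, adjusted p = 0.645 by limma). Its groups did not overlap. The vesicle GTPase gene Rab3a (-0.18), the fusion proteins Stx1a (-0.29) and Vamp2 (-0.18) and the postsynaptic calmodulin-binding protein neurogranin, Nrgn (-0.27), were also lower at an unadjusted p under 0.05. Glutamate receptor genes were higher for 24 of 33 members (median 0.056) and voltage-gated channel genes for 28 of 45 (median 0.040), and no channel gene had an unadjusted p under 0.05. With the length trend removed, 17 of 33 receptor genes (median 0.0015) and 17 of 45 channel genes (-0.033) were higher. The channel median was -0.026 and -0.019 without wild-type replicates 2 and 4, and 0.11 without wild-type replicate 3.

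Cytosolic ribosomal proteins, with a median exon length of 1775.5 bases, were higher for 0 of 50 members with a median of -0.14, and oxidative phosphorylation genes (median length 1950 bases) for 0 of 50 with a median of -0.15. Of the members, 0 and 1 had an unadjusted p under 0.05. With the length trend removed the medians were -0.062 and -0.067. Leaving out wild-type replicate 2, whose values for these lists were the highest, gave -0.018 and -0.084, leaving out wild-type replicate 4 gave -0.045 and -0.094, and leaving out wild-type replicate 3 gave -0.27 and -0.22. In the last case 23 oxidative phosphorylation genes had an unadjusted p under 0.05 on the lower side. At P21 the medians were -0.21 and -0.20, at P3 0.0014 and -0.025.

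Some list medians with all 10 brains are set here beside the median exon length of their members. Microglial genes (median length 2334 bases) had a median above 0, and presynaptic and postsynaptic genes (7424.5 and 7958 bases) medians below it. Without wild-type replicate 3 each of these signs was reversed (-0.059, 0.011 and 0.015). Chromatin and transcription regulators linked to autism, with a median length of 11054 bases, were higher for 36 of 50 members, with a median of 0.083. Here 9 members had an unadjusted p under 0.05 on the higher side and 1 on the lower, beside 3.73% and 3.85% of all genes. Kdm6b, a histone H3 demethylase, was at 1359, 1251, 1370, 1212 and 1262 in wild-type brains and at 1453, 1444, 1425, 1405 and 1523 in heterozygote brains, without overlap (log2 difference 0.17, SE 0.0584, adjusted p = 0.645 by limma). Phf21a, a reader of unmethylated histone H3, and Foxp2, a forkhead factor, had log2 differences of 0.28 and 0.24, and Bcl11a, a zinc-finger factor of cortical neurons, was on the lower side (-0.23). With the length trend removed the median was 0.0092 and 6 members were on the higher side at that p. With any 1 brain left out the median was 0.053 (without wild-type replicate 2) to 0.13 (without wild-type replicate 3), and 2 to 15 members were higher at that p. The 15 were found without wild-type replicate 3, where 1073 of all genes were higher at that p, beside 646 with all 10 brains. Over all genes, the median log2 difference ran from -0.087 in the shortest of the 5 length classes to 0.065 in the longest, and the share of genes higher in heterozygotes from 32.95% to 71.33%. How much of each list's difference comes with length was not tested beyond the values given.

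**Figure D4:**
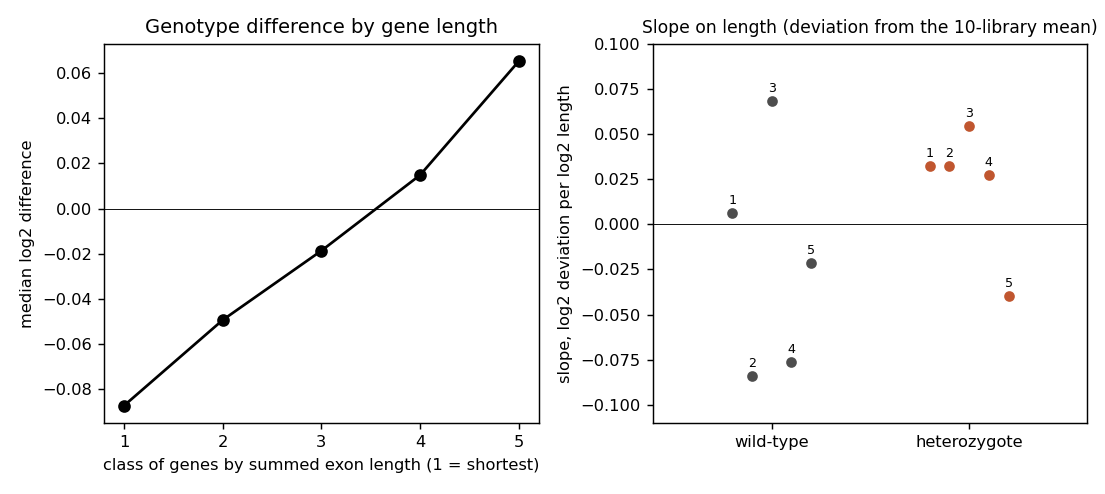
Left, median log2 difference at P56 of all tested genes in 5 equal classes of summed exon length, which climbs from -0.087 to 0.065. Right, slope of each brain's log2 deviation on log2 exon length, with replicate numbers; heterozygote replicates 1 to 4 are above 0 and replicate 5 below, and wild-type replicates spread from -0.084 to 0.068.

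Of 19 genes listed under the MYT family and partners 13 were higher (median 0.090), with 0 at an unadjusted p under 0.05. Without wild-type replicate 3 there were 3 at that p, and 2 without wild-type replicate 1 or 2, all higher. Myt1 was at 835, 574, 416, 584 and 512 in wild-type brains and at 673, 857, 616, 723 and 565 in heterozygote brains. The ranges overlapped, with 2 wild-type brains (416 and 512) below every heterozygote brain and a log2 difference of 0.26 (SE 0.166, adjusted p = 0.705 by limma). The corepressor subunits Sin3a (log2 difference 0.11) and Hdac3 (-0.10) and the stem cell receptor Lgr5 (0.30) were this list's other first genes. A place on the list is no evidence that a gene's product binds a MYT protein. Of 30 progenitor and Notch genes 17 were higher (median 0.0054), and 11 without wild-type replicate 3 (median -0.084). The receptor Notch2 led the list, at 862, 675, 654, 678 and 767 against 924, 900, 960, 869 and 789 (log2 difference 0.29, SE 0.0891). Wild-type replicate 1 was the single overlapping brain for Notch2.

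Genes of immature neurons and axon growth were higher for 16 of 24 members (median 0.085, and 0.019 without wild-type replicate 3). Dpysl5, a collapsin response mediator protein, had separate groups, at 1497, 1647, 1694, 1507 and 1611 in wild-type and 1816, 1786, 1768, 1695 and 1805 in heterozygote brains (log2 difference 0.16, SE 0.0572). Stmn1, the tubulin-binding stathmin, pointed the other way (-0.21). A broader view of maturation came from genes chosen in the wild-type P3 and P21 libraries alone. Of the 300 genes that rose most between those ages 295 were tested at P56, and 167 were higher in heterozygotes (median 0.048, and -0.043 without wild-type replicate 3). Of the 300 that fell most 163 were tested, and 99 were higher (median 0.10, and between 0.078 and 0.15 with any 1 brain left out). At an unadjusted p under 0.05, 19 of the 295 were higher and 20 lower, and 14 of the 163 were higher and 4 lower, beside 3.73% and 3.85% of all genes. Genes that neighbour Myt1l on chromosome 12 were higher for 5 of 19 members (median -0.066), with 1 member at an unadjusted p under 0.05 on each side.

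Markers of blood, muscle, brain regions and attached tissue varied between brains and bear on every comparison of whole brains. Of 11 tested blood genes, from 14 written, 9 were lower in heterozygotes (median -0.35), 5 of them at an unadjusted p under 0.05 (3.85% of all genes were). That count was 1 with the length trend removed or without heterozygote replicate 4, 2 without wild-type replicate 4 or 5 or heterozygote replicate 2 or 3, 3 without wild-type replicate 1 or 3 or on a common library total, and 0 in the joint fit of 36 libraries. The median was -0.20 without heterozygote replicate 4, -0.21 and -0.23 without wild-type replicates 5 and 4, and -0.46 without wild-type replicate 3. The haemoglobin gene Hbb-bs was at 4223, 3899, 3390, 6949 and 4373 in wild-type brains and at 3382, 3524, 3208, 2997 and 3809 in heterozygote brains. Wild-type replicate 4 was high and the rest overlapped. Hba-a1 and Hba-a2 are near-identical copies, so the split of reads between them is uncertain. The summed level of the list ran from 16117 to 24515 normalized counts in wild-type and from 13866 to 16761 in heterozygote brains, and the median at P21 was -0.96.

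Muscle contractile genes were lower for 13 of 17 tested members (median -0.10, and between -0.23 and -0.14 with any 1 brain left out, when 17 or 18 were tested), and 5 of them had an unadjusted p under 0.05, where 3.85% of all genes did. Without wild-type replicate 5, the highest brain for this list, that count was 2, and without heterozygote replicate 3 or 4 it was 3. Acta1, the actin of skeletal muscle, was at 176, 211, 194, 190 and 209 in wild-type brains and at 162, 116, 115, 148 and 193 in heterozygote brains (log2 difference -0.44, SE 0.148). The troponin genes Tnnc1 and Tnnt2 had log2 differences of -0.52 and -0.36. The summed level of muscle genes was low, 2978 to 3674 in wild-type and 2679 to 3286 in heterozygote brains. Their part in other results was not tested.

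Cerebellar genes varied between brains of the same genotype. Their sum was 56447 normalized counts in wild-type replicate 3 and 70606 in replicate 5, and between 105940 and 134779 in the other wild-type brains. Heterozygote brains lay between 76919 and 122484. The list had 16 of 20 members higher (median 0.13), and 5 of 20 without wild-type replicate 3 (median -0.059), while without wild-type replicate 1 the median was 0.27. Olfactory bulb genes had a median of 0.13, which was -0.019 without wild-type replicate 3. Pituitary and pineal genes summed to 197.5 to 21966 in wild-type and 199.4 to 18676 in heterozygote brains, a spread that did not follow genotype. The remaining lists (endothelium, pericytes, fibroblasts, choroid plexus, striatum, cortex and hippocampus, thalamus to hindbrain, cell cycle, cholesterol synthesis, interferon and heat shock) had medians between -0.084 and 0.10. In all 35 lists the ranges of the mean level overlapped between genotypes, and 9 of the 35 medians changed sign without wild-type replicate 3.

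**Figure D5:**
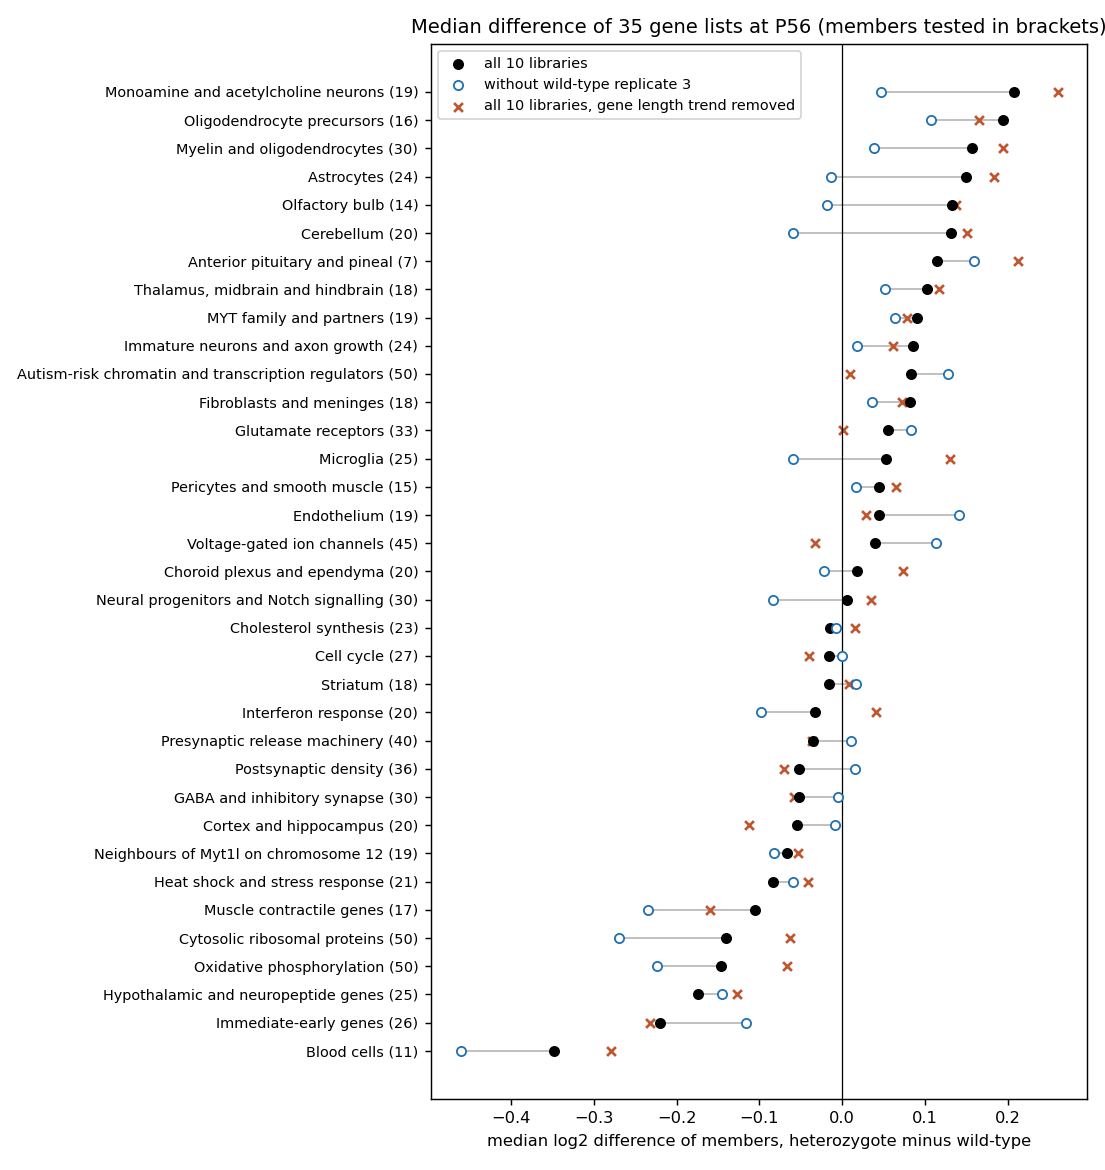
Median log2 difference, heterozygote minus wild-type, of the members of 35 gene lists at P56, with all 10 brains (black), without wild-type replicate 3 (open blue) and with the gene length trend removed (orange crosses). Leaving out that 1 brain takes the astrocyte, cerebellum, microglia and olfactory bulb medians across 0, while the ribosomal, oxidative phosphorylation, neuropeptide, immediate-early and blood lists stay below 0 in all 3.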

How the data were processed

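The deposited table holds signal values, gene-level estimated counts divided by normalization factors, which the authors made with Salmon 1.1.0 and DESeq2 1.26.0 in R 3.6.2 on GRCm38, per the submitters' processing notes. Of 36 columns 0 belonged to no labelled sample. The values are not whole (0.748% are, all of them 0), so read depth is unknown, whole reads were not recovered and no count test was run on them. Identifiers were matched to GENCODE M21 for symbols and exon lengths (19150 of 19164).

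Genes with a value of at least 10 in at least 5 of the 10 P56 libraries were tested with limma 3.58.1 (R 4.3.3; trend and robust options) on log2(value + 1), a scale that understates folds of low genes, with two-sided p-values and Benjamini-Hochberg adjustment. Interactions used all 36 libraries. Myt1l also had an exact permutation test.

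Named genes are Myt1l, the 12 of smallest p in each direction (mean at least 20, no clone names), the first 5 per interaction and up to 4 per list. Some genes that the rule names are not reported here, but count in the totals. The members and the 35 lists (848 of 862 symbols in the table) were chosen with earlier results of these data known, so lists are described, not tested. A list's mean level in a library is the mean log2 deviation of its members from the wild-type mean. Maturation sets are the 300 genes that rose and the 300 that fell most from P3 to P21 in wild-type libraries.

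Alternatives were pseudocounts of 0.5 and 8, scaling by quantiles or to one library total, testing all genes or those reaching 50, limma without trend, library quality weights, a joint fit of 36 libraries, the replicate block, removal of the length trend and leaving out each library. In data simulated on the P56 comparison (17105 genes), 50 of 100 genes with a log2 change of 0.5 were recovered, and 93 of 100 with a change of 1. There were 6 false calls. The changed genes all had a mean log2 level above that of 50 normalized counts, and noise was drawn independently for each gene. Lower genes, which the test also included, were given no change. These rates describe the simulated data only. Whether they carry over to the measured libraries, with their length drift, was not tested.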

Additional observations from a re-analysis of the deposited data

Results flagged for a closer look

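In 138 groups of 5 values, 12 had a highest or lowest brain far from the others by Dixon's 95% criterion, which chance alone meets in about 1 in 20 groups. Among genes these were Myt1l in wild-type replicate 3 (8115 normalized counts), Itpr2 in heterozygote replicate 5 (1011), Vps37d in heterozygote replicate 3 (438.6), Dynlt1f in heterozygote replicate 3 (160.2), Ltv1 in heterozygote replicate 4 (461.3) and Commd4 in heterozygote replicate 5 (1096). Among mean list levels, as log2 deviations from the wild-type mean, wild-type replicate 3 stood apart for oligodendrocyte precursors (-0.28), presynaptic genes (0.17) and the olfactory bulb (-0.64). Heterozygote replicate 5 stood apart for myelin (0.51) and glutamate receptors (-0.15), and wild-type replicate 5 for muscle genes (0.17). Gm31513 had a genotype difference at P56 that was lower than that at P21 by the interaction test (-2.82 on the log2 scale, adjusted p = 0.0282 by limma).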

How the results depend on the processing

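The count of genes called at P56 was 0 and stayed 0 under the alternatives, with 2 exceptions. Limma without trend called 1 (Mlxipl), and with each library left out in turn the count ran from 0 to 1, the 1 being the processed pseudogene Gm6158 without heterozygote replicate 5. With the replicate block the count was 0. Deviations of same-numbered brains correlated at -0.024, -0.051, 0.28, 0.036 and -0.11, and 1 of the 5 heterozygote brains matched best with its own number. These values cannot decide whether a shared number stands for a shared litter, dissection day or run, which the labels do not give. The P56 against P21 interaction called 1 gene, 0 in a fit of those ages alone and 0 to 4 with each library left out (4 without heterozygote replicate 3). Genes at an unadjusted p under 0.05 on the higher side were 646, with library quality weights 1160, and 459 to 1073 with each library left out (1073 without wild-type replicate 3). On the lower side they were 667, with quality weights 1208, in the joint fit of 36 libraries 1035, and 402 to 1076 with each library left out (402 without heterozygote replicate 2, 414 without heterozygote replicate 4, 1074 and 1076 without wild-type replicates 1 and 3). The cause of these moves was not tested. The 24 named genes kept their direction in all 21 alternatives, with adjusted p from 0.0283 to 0.910. They were picked for small p in these same libraries, and several alternatives leave the log2 difference unchanged by construction. The kept direction is therefore no added support. Depth is unknown, so no limit of detection is given.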

Other observations

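Gm6158, a processed pseudogene that can share reads with a near-identical copy, was listed at 0 in heterozygote replicates 1 to 4 and at 112 normalized counts in replicate 5, with wild-type brains between 40.4 and 121. It lies outside the rule for named genes and was singled out after its values were seen.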
